A study of Mus musculus with 6 samples.

Results

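The gene-poor stretch of mouse chromosome 11 around Sox9 held 158 of the 99162 Jun peaks that were listed for rib chondrocytes of newborn mice. The members were all peaks of the deposited list whose midpoint lay between 111000001 and 113000000 on chromosome 11 of the mouse build mm9, an interval of 2 Mb. Sox9 itself lies there at about 112643000 to 112649000, so that 1643 kb of the interval lie upstream of the gene and 351 kb downstream. Both bounds are given to the nearest 1 kb, so a peak within 1 kb of a bound cannot be placed inside or outside the gene with certainty. Of the 158 peaks, 100 lay upstream, 7 inside the gene and 51 downstream.

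The peaks come from 1 ChIP-seq library for Jun and were taken to be its list, since no other Jun library is among the 6 samples of the series. The chondrocytes were released by enzyme digestion from rib cartilage of untreated wild-type ICR mice at postnatal day 1, and an input library, which received no antibody, was prepared from the same kind of cells. How many animals were pooled is not stated. The other 4 samples are RNA-seq libraries from Swiss Webster mice with a Col10a1mCherry reporter, whose rib chondrocytes were sorted (2 from postnatal day 1, 1 from E18.5, before birth, and 1 from postnatal day 3). They were not analysed here, so neither the level of Sox9 RNA nor that of any chondrocyte marker stands beside the peaks. Each row of the list is a chromosome with a start and an end, without height, score or p-value. With 1 library there is no replicate, so the values below carry counting error only, no p-value is given, and no peak has a strength.

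Sox9 is the transcription factor that commits mesenchymal cells to the cartilage fate and switches on matrix genes such as Col2a1 and Acan in proliferating chondrocytes. Its expression falls as chondrocytes become hypertrophic. The gene sits between wide stretches without protein-coding neighbours, and its transcription depends on enhancers scattered over these stretches, many of them far upstream. In humans, chromosome breaks and deletions far from the coding sequence cause campomelic dysplasia and Pierre Robin sequence, which are disorders of the skeleton and the jaw. Jun is a subunit of AP-1, a dimer of basic leucine zipper proteins that binds DNA at promoters and, more often, at distant enhancers. The study asked how AP-1 factors act together with Sox9 during chondrocyte hypertrophy.

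In gene order, taken from the RefSeq table of the later build GRCm38, the nearest protein-coding neighbours upstream of Sox9 are the predicted gene Gm11677 and then Kcnj2 and Kcnj16, which encode inwardly rectifying potassium channels. The nearest protein-coding neighbour downstream is Slc39a11, which encodes a zinc transporter of the SLC39 family. Between Sox9 and Kcnj2 the table lists 5 long non-coding RNA genes, the closest to Sox9 being BC006965, and between Sox9 and Slc39a11 it lists 9, the closest being Gm11681. Which of these neighbours lie inside the mm9 interval was not determined, because the builds differ and no coordinates were converted. No base sequence is shown for the peaks, since no mm9 sequence was used here.

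Taken as a whole, the interval around Sox9 was somewhat denser in Jun peaks than the rest of its chromosome. Its upstream flank alone, with 60.9 per Mb (exact Poisson 95% interval 49.5 to 74.0), was not set apart from that rest. The 158 peaks amount to 79.0 per Mb (exact Poisson 95% interval 67.2 to 92.3), against 57.3 per Mb (55.9 to 58.7) over the rest of chromosome 11, between its first and last peak. Chromosome 11 was divided into 58 windows of 2 Mb aligned with the interval and lying wholly between those peaks. The interval ranked 15th by number of peaks: 14 of the 57 other windows held more, 1 held as many and 42 held fewer. The other windows ranged from 3 to 278 peaks with a median of 107. The window next to the interval on the upstream side (109000001 to 111000000) held 87 peaks, and the one on the downstream side (113000001 to 115000000) held 260, the second highest count of the chromosome. The window with the most peaks, 278, began at 119000001, and that with the third highest number, 248, began at 115000001. The emptiest, with 3, 4 and 5 peaks, began at 37000001, 91000001 and 13000001. The interval therefore sat in the upper part of the chromosome's range and between a sparser and a much denser neighbour. Grouped peaks, as found here, make such counting intervals too narrow.

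**Figure D1:**
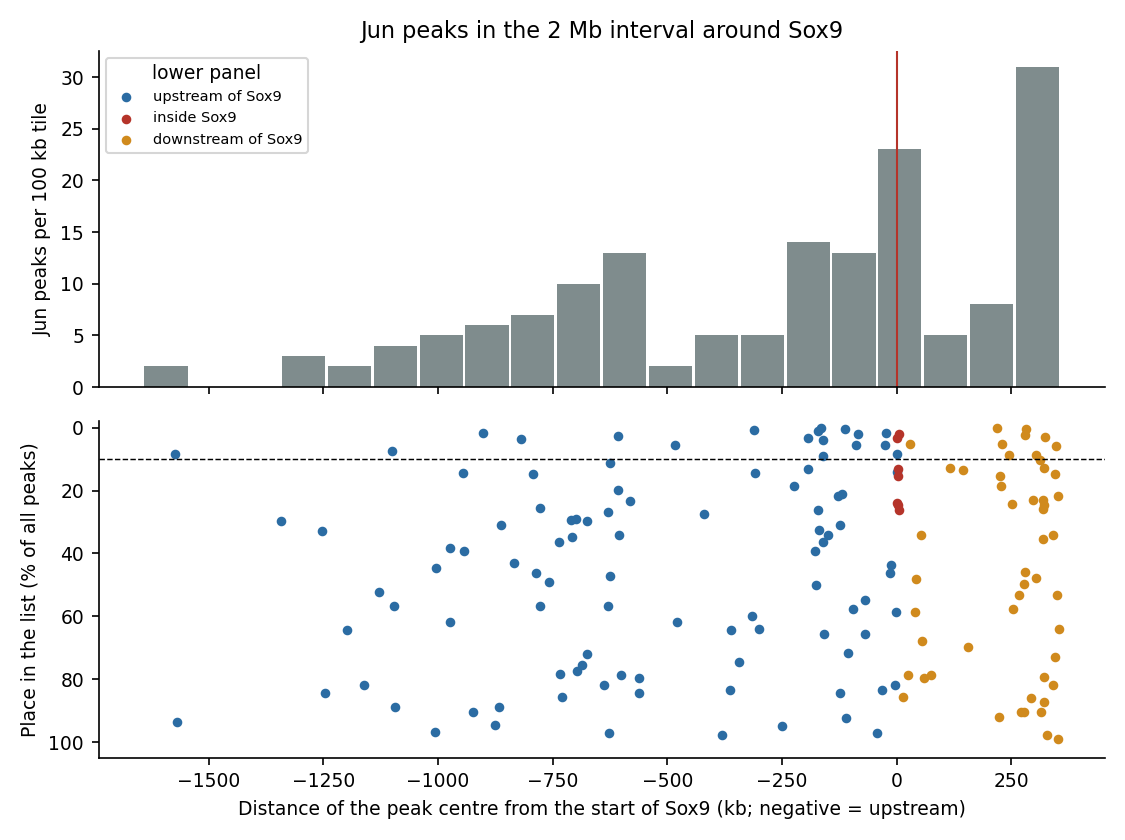
Upper panel: number of Jun peaks in each of the 20 tiles of 100 kb of the interval (bars) against distance from the start of Sox9 in kb, with the start as a vertical line. Lower panel: each of the 158 peaks as a point, with its place in the deposited list as a percentage of all peaks on the vertical axis (first rows at the top, dashed line at 10%); the tile that holds Sox9 had 23 peaks and the last tile downstream 31.

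Sox9 itself carried a compact array of Jun peaks. In all, 9 lay within 1 kb of the gene or inside it: 7 between its bounds and 2 at its start. Over this stretch of 8 kb the density was 1125 peaks per Mb (exact Poisson 95% interval 514 to 2135), against 79.0 per Mb in the interval as a whole. Closely spaced peaks also stood away from the gene, such as a group of 5 over 3.99 kb, 625 to 629 kb upstream. Densities of other stretches of 8 kb are not given, so the gene is not set apart from them. The widest of the 9 ran from 112642627 to 112642926 (300 bp) and overlapped the next, from 112642864 to 112643006 (143 bp). Both have their centres less than 1 kb before the given start of the gene. Whether they lie in the promoter or the first exon cannot be said from bounds rounded to 1 kb.

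Inside the gene the first peak ran from 112643555 to 112643628 (74 bp). The next were 112644801 to 112644908 (108 bp), 112645171 to 112645294 (124 bp), 112646048 to 112646069 (22 bp), 112646507 to 112646537 (31 bp) and 112647044 to 112647152 (109 bp). The last, from 112648488 to 112648620 (133 bp), lay near the end of the gene. All 9 peaks stood early in the list, at places between 1840 and 26016 of 99162, so none was later than 26.2% of the way through it. The earliest were the peak near the gene's end, at place 1840, and the first peak inside the gene, at place 3187, followed by the 300 bp peak at the start, at place 8381. The assignment of these peaks to exons, introns or untranslated regions was not made.

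The flanks close to the gene were less dense, and their peaks stood both earlier and later in the list than those at the gene. Upstream, the nearest beyond 1 kb had its centre 1.71 kb from the start (place 58260), followed by peaks at 2.98 kb (place 81099), 11.4 kb (place 43431) and 14.5 kb (place 45967). Then came a pair of early entries at 23.4 and 26.2 kb, at places 1788 and 5589. Downstream, the nearest was 7.24 kb past the end of the gene (place 85035), followed by peaks at 18.9 kb (place 77843), 24.0 kb (place 5029), 34.1 kb (place 58139) and 36.6 kb (place 47858). Of these 11 flanking peaks the ones at 23.4 and 26.2 kb upstream and 24.0 kb downstream lay in the first 10% of the list. That part holds 10.0% of all peaks. The peaks at 14.5, 23.4 and 26.2 kb upstream were added after their places were seen, so no share is read from the 11. Within 50 kb of the gene there were 10 peaks upstream, counting those at the gene's start, and 7 downstream.

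**Figure D2:**
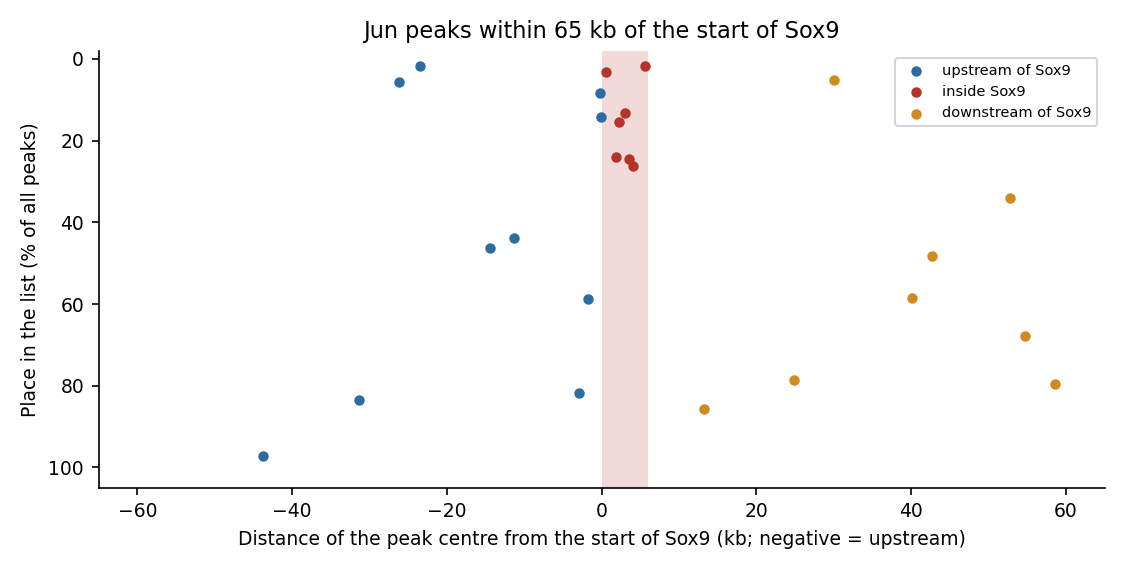
Jun peaks within 65 kb of the start of Sox9, with distance in kb on the horizontal axis and place in the list, as a percentage of all peaks, on the vertical axis (first rows at the top). The shaded band is the gene; its 7 peaks and the 2 at its start are all within the first 26.2% of the list, while the flanking peaks range from 1.80% to 97.3%.

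Upstream of Sox9 peak density did not fall evenly with distance. The class from 0 to 10 kb held 4 peaks, or 400 per Mb (exact Poisson 95% interval 109 to 1024). These include the overlapping peaks at the gene's start, which were also counted above among those within 1 kb of the gene. That from 10 to 50 kb held 6, or 150 per Mb (55.0 to 326), and that from 50 to 100 kb held 5, or 100.0 per Mb (32.5 to 233). From 100 to 250 kb there were 22 peaks, or 147 per Mb (91.9 to 222). From 250 to 500 kb there were 11, or 44.0 per Mb (22.0 to 78.7), and from 500 to 1000 kb there were 39, or 78.0 per Mb (55.5 to 107). Beyond 1000 kb, up to the edge of the interval, 13 peaks gave 20.2 per Mb (10.8 to 34.6). The counting intervals of the 100 to 250 kb class and the 250 to 500 kb class did not overlap, nor did those of the 500 to 1000 kb class and the class beyond. The intervals of the 250 to 500 kb class and the 500 to 1000 kb class did overlap. Grouped peaks make all these intervals too narrow, so no class is set apart from another by them. Most peaks of the 100 to 250 kb class, for example, came from 1 group of 11 and 1 of 7.

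Downstream of Sox9 the far end held the most peaks. The class from 0 to 10 kb held 1 peak, or 100.0 per Mb (exact Poisson 95% interval 2.53 to 557), that from 10 to 50 kb held 6, or 150 per Mb (55.0 to 326), and that from 50 to 100 kb held 2, or 40.0 per Mb (4.84 to 144). That from 100 to 250 kb held 11, or 73.3 per Mb (36.6 to 131). The last class, from 250 to 351 kb, held 31 peaks, or 307 per Mb (209 to 436). Of the 51 downstream peaks, 31 therefore lay in the last 101 kb. The tile from 112900001 to 113000000 was the fullest of the interval, with 31 peaks, ahead of the tile with Sox9 (112600001 to 112700000), with 23. Only 6 of the 57 other windows of chromosome 11 had a fuller tile of 100 kb than that, and 1 had an equal one.

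The flank upstream of Sox9 held 60.9 peaks per Mb (exact Poisson 95% interval 49.5 to 74.0) and the flank downstream 145 per Mb (108 to 191). The ratio of upstream to downstream density was 0.419 (exact 95% interval 0.296 to 0.599, counting error only). It rested on the unequal lengths and on the far downstream end. Over equal flanks of 351 kb there were 42 peaks upstream and 51 downstream, a ratio of 0.824 (0.534 to 1.26). Without the last 100 kb downstream, a setting chosen after seeing the data, the ratio was 0.764 (0.469 to 1.30). Neither of these settings separates the sides beyond counting error.

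**Figure D3:**
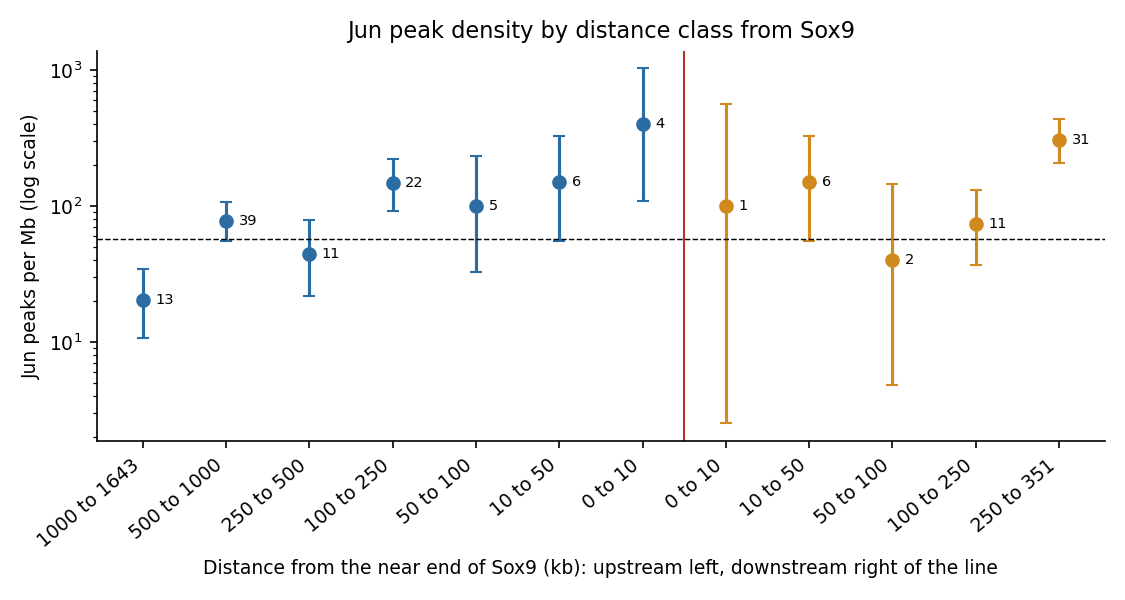
Jun peaks per Mb (log scale) by distance class in kb from the near end of Sox9, upstream classes left and downstream classes right of the vertical line. Points are densities with exact Poisson 95% intervals as bars, numbers beside them are peak counts, and the dashed line is the density of the rest of chromosome 11 (57.3 per Mb); the highest counts are 39 at 500 to 1000 kb upstream and 31 at 250 to 351 kb downstream.

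The peaks of the interval were grouped about as closely as those of the chromosome. For 106 of the 158 peaks, or 67.1% (exact binomial 95% interval 59.2 to 74.3), the next centre on the chromosome lay within 10 kb. The percentage was 66.0% for the other peaks of chromosome 11 and 61.3% for all peaks of the list. Of the 57 other windows, 18 had a higher and 39 a lower percentage. By side, it was 60.0% upstream and 76.5% downstream, with overlapping intervals (49.7 to 69.7 and 62.5 to 87.2). Within 500 bp the next centre was found for 21 peaks (13.3%, 8.42 to 19.6), against 11.3% of all peaks. The median distance to the next centre was 4741 bp in the interval and 4694 bp for the other peaks of chromosome 11.

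Chaining centres no more than 10 kb apart gave 53 groups, of which 22 were single peaks and 13 were pairs. The remaining 18 groups held 110 peaks, or 69.6% of the members, against 70.8% of the peaks in such groups on chromosome 11 as a whole. With groups cut at the edges of the interval, the fullest was the one at Sox9, with 17 peaks over 44.7 kb from 112611609 to 112656309, 7 of them inside the gene. Of the 2325 groups of chromosome 11, 29 held 17 peaks or more and 25 held more than 17, so the group at Sox9 was among the larger but not the largest of its chromosome.

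Far downstream lay 3 neighbouring groups. One of 7 peaks spanned 15.4 kb (112909311 to 112924749), one of 15 peaks spanned 35.7 kb (112935542 to 112971255), and one of 9 peaks ran from 112983198 to 112996822. The last was cut by the edge of the interval: with 10 further peaks outside, it held 19 in all and ended at 113026610. The tile of 100 kb just past the edge held 22 peaks, so the dense stretch went on into the next window. The group of 15 contained a tight run of 7 peaks between 112962244 and 112965001, among them one of the widest peaks (486 bp, 112962433 to 112962918), which overlapped the following one. Nearer to the gene, a group of 5 lay 214 to 223 kb downstream (112862495 to 112872369), one of 3 lay 239 to 248 kb downstream and another of 3 lay 46.7 to 52.6 kb downstream.

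Upstream, the fullest group was that of 11 peaks over 27.8 kb, 150 to 178 kb from the gene (112465130 to 112492935). A group of 7 followed at 107 to 128 kb (112514974 to 112536500) and one of 3 at 83.5 to 95.4 kb (112547499 to 112559575). These 3 groups held 21 of the 100 upstream peaks, and 7 of these (4, 1 and 2 by group) lay within the first 10% of the list. That part of the list held 18 of the 100 upstream peaks and holds 10.0% of all peaks. A group of 4 lay 301 to 315 kb upstream. In the class from 500 to 1000 kb there were 6 groups of 3 or more. The tightest was that of 5 peaks over 3.99 kb, 625 to 629 kb from the gene (112014216 to 112018206), with a group of 4 at 601 to 608 kb beside it. The other 4 groups lay 698 to 710 kb (4 peaks), 729 to 737 kb (3 peaks), 778 to 794 kb (4 peaks) and 862 to 875 kb (3 peaks) from the gene. The most distant group of 3 lay 1093 to 1101 kb upstream.

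Between neighbouring members, 4 of the 5 longest stretches without a peak were upstream. That is also the longer side, with 1643 kb of the interval against 351 kb downstream. The longest measured 227 kb, from 111073844 to 111301160, and left the 2 tiles between 111100001 and 111300000 empty. The next measured 89.4 kb (111301634 to 111391070), 86.4 kb (111549946 to 111636372) and 78.1 kb (112082207 to 112160283). The fifth, of 62.8 kb, was downstream, from 112799710 to 112862494. The stretch from the upstream edge of the interval to its first peak was also empty, for 68.7 kb, and with the bases outside it ran 148 kb in all to the peak from 110920917 to 110920983. Between these 2 upstream stretches stood 2 peaks, of 198 bp (111068665 to 111068862, the first of the interval, 1574 kb from Sox9) and 108 bp (111073736 to 111073843). The last peak of the interval ran from 112996669 to 112996822. Of its 20 tiles the interval had 2 without a peak, against a median of 3 in the other windows of chromosome 11.

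Early rows of the list were more frequent in the interval than in the other windows of its chromosome. The rows are not in genomic order and no label explains the order, so an early place cannot be read as a stronger peak. Of the 158 peaks, 29 (18.4%, exact binomial 95% interval 12.7 to 25.3) lay in the first 10% of the list, which holds 10.0% of all peaks by construction. The percentage was 9.77% for the other peaks of chromosome 11. None of the 57 other windows reached that of the interval, their range being 0 to 14.8% with a median of 9.56%. The window with 14.8% began at 107000001 and held 162 peaks. The median place of the interval peaks was 38.7% of the way through the list, against 50.1% for the other peaks of chromosome 11, and 1 other window, with 14 peaks, had an earlier median (34.3%). The binomial interval treats the peaks as independent, though 27 of the 29 early ones had a neighbour within 10 kb, as did 136 of the 158. It may therefore be too narrow.

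**Figure D4:**
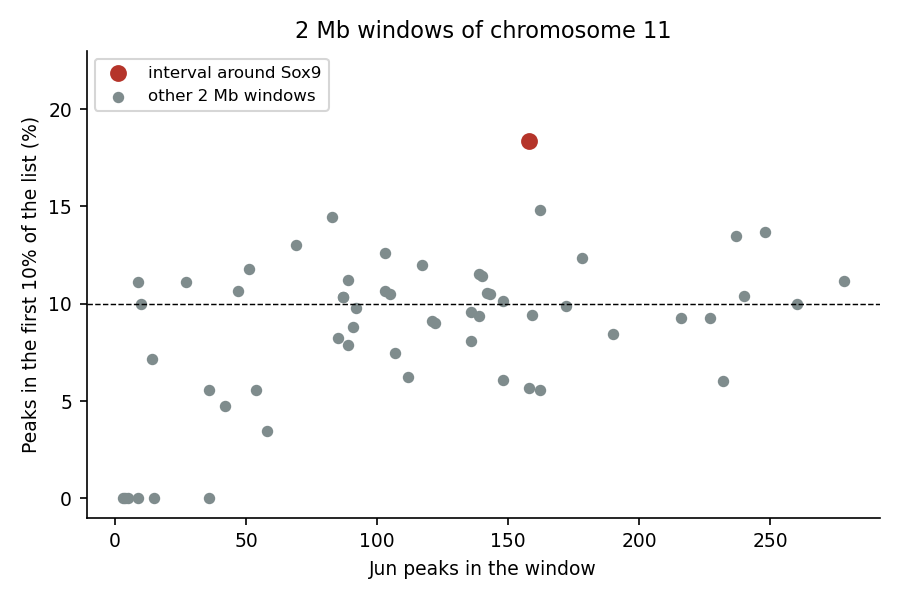
The 58 windows of 2 Mb of chromosome 11, with the number of Jun peaks on the horizontal axis and the percentage of these that lie in the first 10% of the list on the vertical axis (dashed line at 10%). The interval around Sox9, the red point, has 158 peaks and 18.4%, above all other windows, the highest of which has 14.8%.

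Upstream of Sox9, early rows made up a larger share of the peaks within 351 kb than of those farther away, with overlapping intervals. Upstream, 18 of 100 peaks were in the first 10% of the list. Of the 42 within 351 kb upstream there were 12 (28.6%, exact binomial 95% interval 15.7 to 44.6). Of the 58 farther upstream there were 6 (10.3%, 3.89 to 21.2), near the 10.0% of all peaks. From 500 to 1000 kb it was 3 of 39 (7.69%), and beyond 1000 kb 2 of 13 (15.4%). Inside the gene it was 2 of 7, and downstream 9 of 51 (17.6%, 8.40 to 30.9, an interval that covers the 10.0%). The difference between the near and the far upstream peaks was noticed in the data and not tested. Without the group at Sox9, a setting chosen after seeing the data, the percentage was 17.0%. With the list cut into 10 equal parts, each part after the first held between 10 and 20 of the interval peaks. At other limits, also chosen after seeing the data, 5 peaks (3.16%) were in the first 1% and 17 (10.8%) in the first 5%, in each case above all 57 other windows of chromosome 11. In the first 20% there were 46 (29.1%), with 2 windows higher, and in the first 50% 93 (58.9%), with 4 windows higher. Over the autosomes, 10 of 722 other windows with at least 50 peaks reached or passed 18.4% in the first 10%, up to 27.4%. The interval was therefore not alone in the genome.

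The earliest 5 peaks stood on both sides of the gene and at a distance from it. The first, at place 124, lay 214 kb downstream (112862495 to 112862596, 102 bp) and began the group of 5 described above. The second, at place 168, lay 166 kb upstream (112477078 to 112477204, 127 bp), in the group of 11. The third, at place 392, lay 112 kb upstream (112531408 to 112531494, 87 bp), in the group of 7. The fourth, at place 563, lay 276 kb downstream (112924626 to 112924749, 124 bp) and closed a group of 7. The fifth, at place 789, lay 311 kb upstream (112331863 to 112331971, 109 bp), in a group of 4. All 5 had a neighbour within 10 kb and measured 87 to 127 bp. The 5 latest, at places 96434 to 98324, were also spread over the interval, at 627, 381 and 43.8 kb upstream and at 322 and 345 kb downstream.

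Peaks with a neighbour on either side within 10 kb had an earlier median place than isolated ones. It was 35.9% of the way through the list for the 136 peaks with such a neighbour, against 58.3% for the 22 without. The first 10% held 27 of these 136 peaks (19.9%, exact binomial interval 13.5 to 27.6) and 2 of these 22 (9.09%, 1.12 to 29.2). These intervals overlap, and the one for the isolated peaks covers the 10.0% of all peaks. Peaks outside the interval around Sox9 were not divided in this way. Whether the difference in place is particular to the interval was therefore not tested. The 17 peaks of the group at Sox9 had a median place of 24.1%, against 43.1% for the remaining 141 members. Neighbours within a group nevertheless differed widely. In the group of 7 upstream, the peak at place 392 and its neighbour at place 91505 were 336 bp apart from centre to centre.

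**Figure D5:**
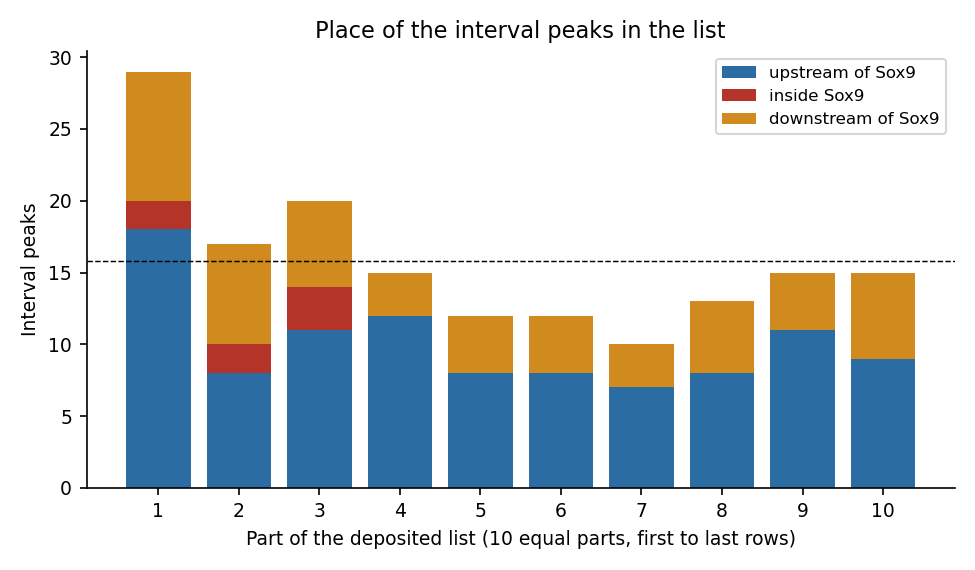
Number of interval peaks in each of 10 equal parts of the deposited list, from its first to its last rows, divided by side of Sox9. The dashed line is the mean of the 10 parts, 15.8 peaks; the first part holds 29, of which 18 lie upstream, 2 inside the gene and 9 downstream.

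The interval peaks were of ordinary width. Their median was 112 bp, with the central 50% between 87.25 and 140.5 bp, against a median of 114 bp for the other peaks of chromosome 11. Peaks of 200 bp or more numbered 17 (10.8%, exact binomial 95% interval 6.39 to 16.7), against 14.0% of all peaks. Peaks narrower than 50 bp numbered 8 (5.06%, 2.21 to 9.73), against 6.30% of all peaks. The 5 widest were 494 bp at 308 kb upstream (112334367 to 112334860), 492 bp at 943 kb upstream (111700095 to 111700586), 486 bp at 314 kb downstream, 473 bp at 1342 kb upstream (111301161 to 111301633) and 390 bp at 271 kb downstream (112919995 to 112920384). The 473 bp peak stood alone, with no other peak for 227 kb on its far side and 89.4 kb on its near side. The 3 narrowest measured 17 bp (381 kb upstream), 21 bp (794 kb upstream) and 22 bp, the last inside Sox9. The median width was 110 bp upstream, 108 bp inside the gene and 117 bp downstream. Of the 29 members in the first 10% of the list, 2 were of 200 bp or more; their widths ran from 51 to 300 bp with a median of 109 bp.

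Set beside the 10 windows of chromosome 11 closest to it in number of peaks, which held 140 to 172, the interval lay outside their range in list place and within it in the other measures compared. The share of its peaks in the first 10% of the list was 18.4%, against 5.56 to 14.8% in those windows, and its median place was 38.7%, against 43.6 to 61.5%. The percentage with the next centre within 10 kb was 67.1%, against 61.0 to 71.6%, and the median width was 112 bp, against 102 to 122 bp. Its largest group held 17 peaks, against 12 to 28, and it formed 53 groups, against 46 to 62. Its fullest tile, with 31 peaks, equalled the highest of the 10, which ranged from 16 to 31. Read depth, copy number, open chromatin and the input signal of these windows were not used here, and their part in these values was not tested.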

How the data were processed

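Chromatin of rib chondrocytes was cross-linked in 1% formaldehyde for 10 minutes and sheared to 100 to 600 bp, 9 μg of Jun antibody was used on 20000000 cells, and libraries were amplified by 18 PCR cycles, per the labels' protocols. The deposited list holds 3 columns (chromosome, start, end in bp) on mm9, per the submitters' processing notes; the aligner, the peak caller and its threshold, the use of the input and the read depth are not stated there. The list's name bears the letters FDR, which nothing in the labels defines, so no threshold is given. Positions are printed counted from 1, and a peak's position is its midpoint. From the list, pandas 2.3.3, numpy 2.4.6 and scipy 1.17.1 under Python 3.11.15 gave counts by distance from Sox9, 2 Mb windows, groups with centres within 10 kb, widths and list places. Sox9 is read toward higher coordinates. Poisson and binomial intervals are exact, at 95%, and cover counting error only. Both kinds treat the peaks as independent, so grouping can make them too narrow. The members and the settings were chosen with earlier results of these data known. The peaks named are those inside Sox9, the 5 nearest on each side, the 5 earliest and latest in the list, the 5 widest, the 3 narrowest and the first and last of the interval, with all groups of 3 or more and the 5 longest gaps; the peaks at 14.5, 23.4 and 26.2 kb upstream, the run of 7 and the pair 336 bp apart were chosen after their values were seen. The counting steps were tested on simulated data with planted peaks. No per-sample value, motif or gene feature was used, and the promoter table holds 0 entries for Sox9.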

Additional observations from a re-analysis of the deposited data

How the results depend on the processing

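Of 32 alternatives over 8 results, 21 stayed within the counting interval (or, for counts, within 1.5 times the value) and 11 moved. A turn of direction was looked for only in the ratio of upstream to downstream density, and none was found there. Cutting the list into 2 equal parts gave 93 peaks in the earlier and 65 in the later part. The rank among windows was 24 with the later part alone and 159 of 1177 windows over all autosomes. The ratio of upstream to downstream density was 0.824 over equal flanks and 0.764 without the last 100 kb downstream. The share with the next centre within 10 kb was 58.1% with peaks within 1000 bp merged, against 47.6% of all merged regions. For the next centre within 5 kb it was 50.6% (all peaks 47.7%) and within 20 kb it was 82.3% (all peaks 75.6%). Chaining within 20 kb gave 29 groups, and merging a median width of 121 bp. Fewer peaks enter by construction in each part of the list and after merging; other causes were not tested. Among the alternatives chosen after seeing the data were the gene's bounds widened by 1 kb (ratio 0.410), the flank without its far end and the settings for the first 10% of the list (17.0% and, merged, 21.8% against 12.5% of all merged regions). No paired analysis was possible because the peaks come from 1 library. Without read depth, a place without a listed peak cannot be taken as unbound.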

Other observations

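The order of the list was not alike in its earlier and later parts. A row was on the same chromosome as the row before it in 5.70% of cases in the first 10% of the list and in 9.81% in the last 10%. With the list cut into 10 equal parts, each of the last 4 parts gave between 9.27% and 11.9%. The share for rows in random order was not computed. Some late interval peaks far apart on the chromosome stood in nearly adjacent rows, such as places 96434 and 96436, or 83609, 83612 and 83614. List places therefore cannot be taken as independent of each other, which limits the medians and shares of place given above. Differences between neighbouring late places are given no reading here.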
